A study of Mus musculus with 8 samples.

Results

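The homeostatic astrocyte genes described here are Slc1a2, Slc1a3, Glul, Aqp4, Kcnj10, Gja1, Gjb6, Aldh1l1, Aldoc and Sox9. They were taken by gene symbol, and all 10 were found, once each, among the 47643 gene identifiers of the deposited count table. Astrocytes clear glutamate from synapses and turn it into glutamine, take up the potassium that firing neurons release, move water at their endfeet on blood vessels, and share these loads through gap junctions. The 10 genes encode the transporters, channels, connexins and enzymes of that work, with 1 transcription factor that maintains astrocyte identity. They are widely used as markers of astrocytes in brain and spinal cord.

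RNA came from C57BL/6 mice, 4 labelled homozygous and 4 labelled heterozygous, with spinal cord given as the tissue and 1 library per animal. The work is on neuronal Arf1, a small GTPase of Golgi transport, and its protocol gives tamoxifen at 100 mg/kg to delete Arf1, in mice of 2 to 10 months. The same protocol text stands on every sample, and the labels do not name the promoter that drives the recombinase, the floxed allele, or the age and sex of single animals. No wild type library was analysed here, so heterozygous animals are the reference throughout.

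The homozygous libraries held 26321522 to 37879426 expected counts and the heterozygous libraries 29857210 to 37803594. Arf1 was at 307, 22.5, 22.8 and 39.9 CPM (read counts scaled to library size by TMM) in homozygous replicates 1 to 4, against 296 to 334 CPM in the heterozygous libraries. The Arf1 level of the library labelled homozygous replicate 1 therefore goes against its label. Fits were run on all 8 libraries and on the 7 without it, and some values below are given for 1 of these fits only. Homozygous replicate 3 had 2.44% ribosomal bases and 92.36% of reads mapped, against at most 0.34% and at least 98.33% in the other libraries. The sex-linked Xist was at 412 CPM in homozygous replicate 4 and 386 CPM in heterozygous replicate 4, against 0 to 44.5 CPM elsewhere. The Y-linked Ddx3y was at 3.91 and 2.62 CPM in those libraries, against 39.8 to 51.1 CPM elsewhere. Xist was used as a covariate in an alternative fit, given below, but the part of sex in the levels of homozygous replicate 4 alone was not tested. All 7 Hox genes of a cord segment list were detected, with sums of 32.5 to 78.0 CPM in homozygous and 41.1 to 75.2 CPM in heterozygous libraries. All 5 genes of a forebrain list, among them Emx1, Neurod6 and Tbr1, were detected in every library too, summing to 283 to 371 CPM in homozygous and 258 to 356 CPM in heterozygous libraries, which goes against spinal cord as the only tissue. Tbr1, a transcription factor of cortical neurons, alone reached 104 to 144 CPM in homozygous and 90.0 to 134 CPM in heterozygous libraries. The libraries are therefore called by genotype label below, and no level is read as one of pure spinal cord.

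Of the 10 genes, none differed between homozygous and heterozygous libraries at an adjusted p of 0.05 by edgeR's quasi-likelihood test, in 8 or in 7 libraries. Across all genes tested the same test called 0% of 16511 genes in 8 libraries and 1.22% of 16560 genes in 7. Kcnj10, the potassium channel, came nearest, with a log2 fold change (homozygous over heterozygous) of -0.68 and an adjusted p of 0.0523 in 7 libraries. At an unadjusted p under 0.05, Kcnj10 and Slc1a2 were on the lower side in both fits and no member was on the higher side, 2 of 10 members against 16.8% of all genes in 8 libraries (8.9% on the lower side) and 19.5% in 7 (9.94% on the lower side). The log2 fold changes were negative for Slc1a2, Slc1a3, Glul, Aqp4, Kcnj10 and Gja1 and positive for Gjb6, Aldh1l1, Aldoc and Sox9 in both fits, except that on the log2(TPM + 1) scale Aldh1l1 and Aldoc were negative in both and Gjb6 in 7 libraries, and that Glul and Aldh1l1 changed sign in 8 libraries with some single libraries left out. Their median was -0.07 in 8 libraries and -0.10 in 7, beside a median near 0 over all genes tested (0.0015 and 0.0027). With 1 library left out the members' median ranged from -0.15 to -0.02 in 8 libraries and from -0.19 to -0.02 in 7, in both cases lowest without homozygous replicate 2 and highest without homozygous replicate 4. It also moved by more than 1.5 times in 8 libraries without homozygous replicate 3 (-0.02) or heterozygous replicate 2 (-0.12) or 3 (-0.02), and in 7 without homozygous replicate 3 (-0.03) or heterozygous replicate 3 (-0.05). With the log2-CPM of Xist as a covariate, the members' median was -0.05 in 8 libraries and -0.06 in 7. In those fits 0 of the 10 members were called. On the log2(TPM + 1) scale the median over all genes was itself -0.14 in 8 and -0.17 in 7 libraries, and there the members' medians were -0.29 and -0.36. With bulk RNA, fewer astrocytes and less RNA per astrocyte cannot be told apart.

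**Figure D1:**
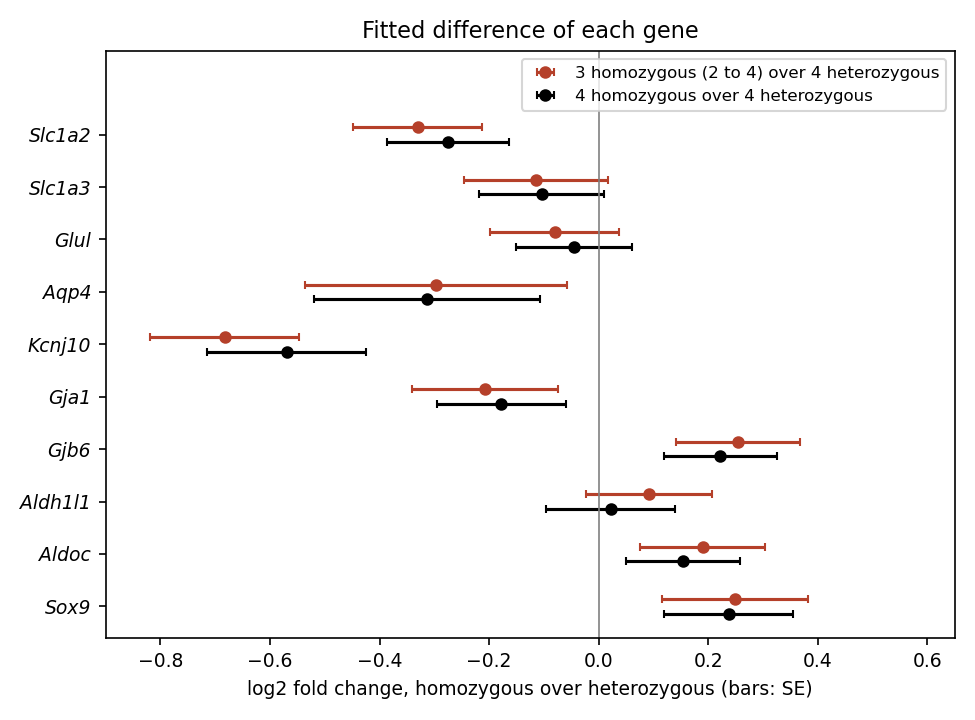
Log2 fold change, homozygous over heterozygous (x axis), of each of the 10 genes (y axis) in the edgeR fits of 7 and of 8 libraries; bars are 1 SE. Kcnj10 lies farthest from 0, at -0.68 and -0.57, while Gjb6, Aldh1l1, Aldoc and Sox9 lie above 0 in both fits; on the log2(TPM + 1) scale Aldh1l1 and Aldoc turn negative in both, and Gjb6 in the fit of 7 libraries.

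All 10 genes were well covered, with 386 to 101897 expected counts per gene and library, so counting error is small beside the spread between animals. In TPM, which corrects for transcript length and so allows levels of different genes to be compared, Glul was the most abundant member, at 1065 ± 210 TPM in homozygous and 1282 ± 121 TPM in heterozygous libraries (SD, n = 4 each). Aldoc followed at 977 ± 96.6 TPM in homozygous and 989 ± 125 TPM in heterozygous libraries, and its range overlapped that of Glul in both groups. Slc1a2 came next, at 288 ± 55.7 TPM in homozygous and 391 ± 32.8 TPM in heterozygous libraries, and then Slc1a3, at 161 ± 28.4 TPM in homozygous and 196 ± 21.1 TPM in heterozygous libraries. These steps, from Aldoc to Slc1a2, to Slc1a3 and to Gja1, separated without overlap in each group. Gja1, Kcnj10 and Gjb6 formed the middle of the order, with overlapping neighbours in both groups. In TPM Gja1 stood at 100.05 ± 15.2 in homozygous and 127 ± 24.0 in heterozygous libraries, and Kcnj10 at 71.1 ± 18.4 in homozygous and 118 ± 20.9 in heterozygous libraries. Gjb6 stood at 110.03 ± 19.9 TPM in homozygous and 110.3 ± 23.5 TPM in heterozygous libraries, so it ranked above Kcnj10 in homozygous and below it in heterozygous libraries. Aqp4 (45.4 ± 15.0 TPM in homozygous and 63.4 ± 13.3 TPM in heterozygous libraries) and Aldh1l1 (41.7 ± 4.31 TPM in homozygous and 47.7 ± 6.86 TPM in heterozygous libraries) overlapped each other. Sox9 was lowest, at 6.38 ± 0.67 TPM in homozygous and 6.11 ± 0.97 TPM in heterozygous libraries.

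Kcnj10 encodes Kir4.1, the inwardly rectifying channel through which astrocytes buffer potassium and hold their resting potential; oligodendrocytes also express it. It lies on the plus strand of chromosome 1, from 172341210 to 172374085 (GRCm38). The 250 bases before its start site, from RefSeq (GRCm38.p6), are shown because it is the 1 member whose groups did not overlap in CPM. Capitals mark TTGGC, the short recognition site of nuclear factor I proteins, a family active in astrocyte development.
Kcnj10 chr1:172340960-172341209 (plus strand): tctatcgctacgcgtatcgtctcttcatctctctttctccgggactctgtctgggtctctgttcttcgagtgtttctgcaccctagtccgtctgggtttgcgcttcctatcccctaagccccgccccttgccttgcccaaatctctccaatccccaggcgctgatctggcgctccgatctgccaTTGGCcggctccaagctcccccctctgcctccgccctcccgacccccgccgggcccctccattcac
The TTGGC shown lies 66 to 62 bases before the start site, and its first 4 letters belong to a reversed CCAAT box; a second TTGGC lies 8 to 12 bases after the start, outside the printed stretch. Windows of 250 bases before and 50 after the start were searched on both strands, in 9 promoters of 8 members. The promoters of Aqp4 and Sox9 were not searched. TTGGC occurred in 4 of the 9 promoters (Aldoc, Glul, Kcnj10 and Slc1a2), and in 46.7% of 32851 promoters in all. The SOX core ACAAT occurred in those of Aldoc and Slc1a3 and in 31% of all, CCAAT in those of Aldh1l1, Glul, Kcnj10 and Slc1a3 and in 37.4% of all. A match is a run of letters and says nothing of binding.

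Kcnj10 was at 296, 216, 195 and 259 CPM in homozygous replicates 1 to 4, against 302, 319, 414 and 399.9 CPM in heterozygous replicates 1 to 4. Every homozygous library lay below every heterozygous one, though homozygous replicate 1, with Arf1 at the heterozygous level, lay just under the lowest of them. In CPM, groups failed to overlap in 1 of the 10 members, against 9.28% of all genes tested in 8 libraries (4.67% with the homozygous group lower) and 18.5% in 7 (8.78% with it lower). Over 8 libraries Kcnj10 averaged 242 ± 44.9 CPM in homozygous and 359 ± 56.2 CPM in heterozygous libraries (SD, n = 4 each), a log2 fold change of -0.57 (SE 0.15, edgeR adjusted p = 0.138). Over 7 libraries it averaged 223 ± 32.2 CPM in homozygous (n = 3) and 359 ± 56.2 CPM in heterozygous libraries, a log2 fold change of -0.68 (SE 0.14, edgeR adjusted p = 0.0523). The difference thus exceeded the spread within groups but did not pass the test over all genes. The direction held in every alternative, with adjusted p from 0.00693 (DESeq2) to 0.309 in 8 libraries and from 6.76e-05 (DESeq2) to 0.199 in 7. In 7 libraries it passed when homozygous replicate 4 (adjusted p = 0.0301) or heterozygous replicate 1 (adjusted p = 0.0360) was left out, and did not when any 1 of the other 5 was. Its partner subunit Kcnj16, which encodes Kir5.1, was at 27.2, 24.0, 22.7 and 28.2 CPM in homozygous and 25.5, 33.0, 40.0 and 31.4 CPM in heterozygous replicates 1 to 4, with overlapping groups (log2 fold change -0.38 in 7 libraries, SE 0.14, edgeR adjusted p = 0.195). The TPM of Kcnj10 was 7.25, 6.01, 5.66 and 6.07 times that of Kcnj16 in homozygous and 7.87, 6.44, 6.89 and 8.48 times in heterozygous replicates 1 to 4.

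**Figure D2:**
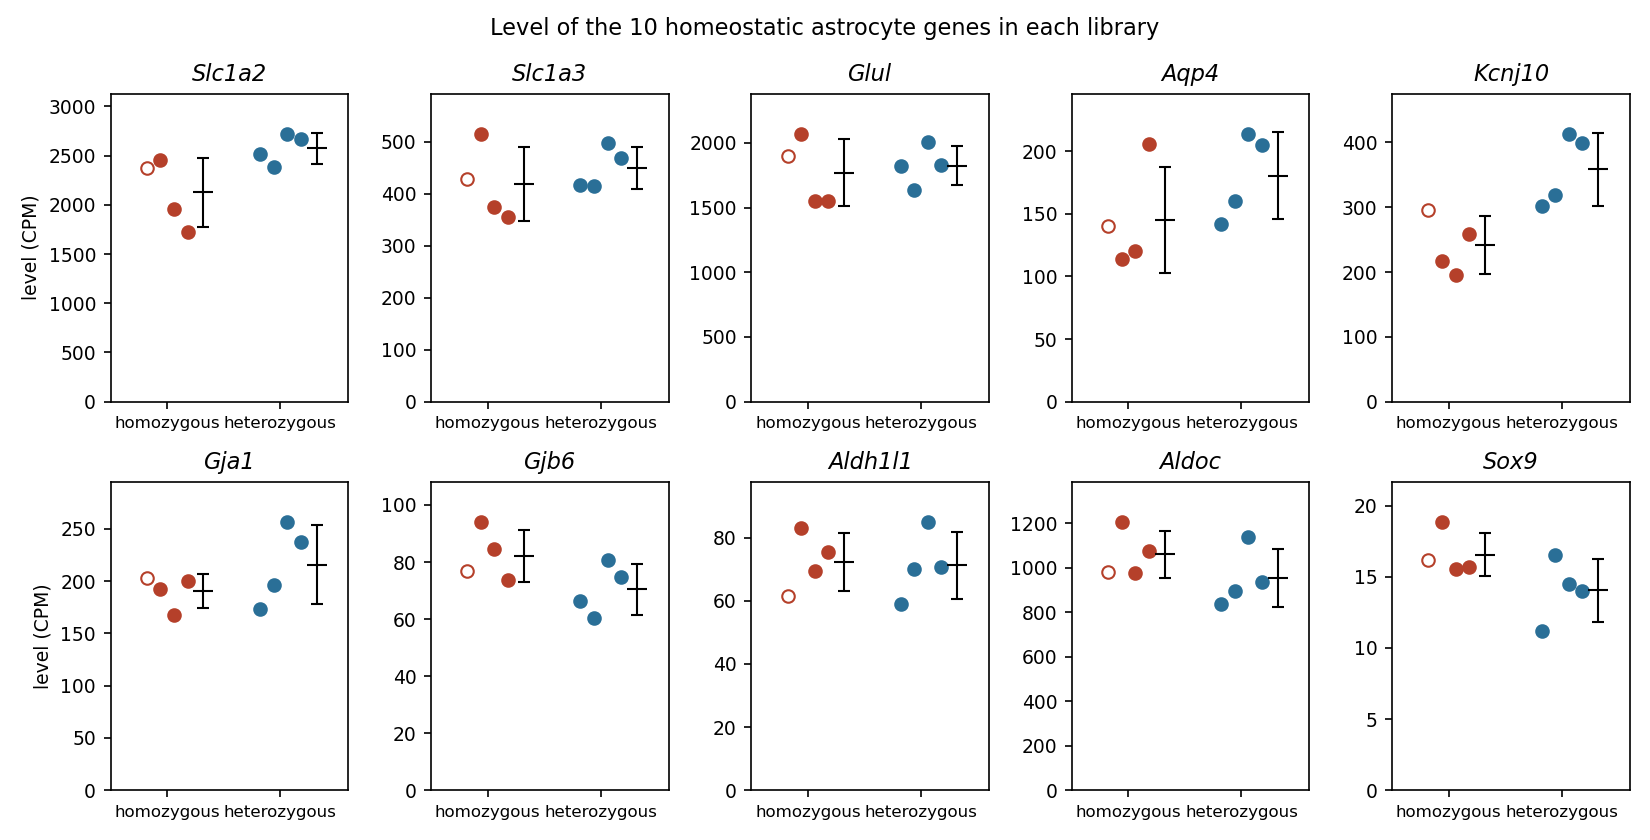
Level (y axis, TMM-scaled CPM from 0) of each of the 10 genes in the homozygous libraries, left, and the heterozygous libraries, right; points are libraries in replicate order, the open point is homozygous replicate 1, and the bar gives the mean and SD of 4. In the Kcnj10 panel the homozygous points span 195 to 296 CPM and the heterozygous points 302 to 414 CPM, while the points of the other 9 genes overlap between groups.

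Aqp4 encodes aquaporin-4, the water channel of astrocyte endfeet. It was at 140.1, 114, 120.2 and 206 CPM in homozygous replicates 1 to 4, against 142, 161, 214 and 205 CPM in heterozygous replicates 1 to 4. Homozygous replicates 1 to 3 lay below every heterozygous library, while replicate 4 was the second highest of all 8. The log2 fold change was -0.31 in 8 libraries (SE 0.21, edgeR adjusted p = 0.465) and -0.30 in 7 (SE 0.24, adjusted p = 0.526). It moved to -0.63 without homozygous replicate 4 in the fit of 7 libraries (adjusted p = 0.0964), and Aqp4 had the widest SE of the 10 genes.

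Kcnj10 and Aqp4 were lowest in homozygous replicates 2 and 3, which also had the lowest Hox sums (32.5 and 35.3 CPM). Homozygous replicate 4 had the highest Hox sum (78.0 CPM) with Kcnj10 at 259 CPM, and heterozygous replicate 2 had a Hox sum of 41.1 CPM with Kcnj10 at 319 CPM. The balance of cord and forebrain transcripts, taken as the mean log2-CPM of the 7 Hox genes less that of the 5 forebrain genes, was -2.83, -3.71, -3.99 and -2.37 in homozygous replicates 1 to 4 and -3.29, -3.59, -2.81 and -2.35 in heterozygous replicates 1 to 4. Homozygous replicates 2 and 3 thus had the most forebrain-weighted libraries. At a like balance, homozygous replicate 2 had 216 CPM of Kcnj10 where heterozygous replicate 2 had 319, and homozygous replicate 4 had 259 CPM where heterozygous replicate 4 had 399.9. Homozygous replicate 1, with Arf1 at the heterozygous level, had 296 CPM of Kcnj10 where heterozygous replicate 3 had 414. Each pair is of single libraries and was not tested. Homozygous replicate 3 (195 CPM) and heterozygous replicate 1 (302 CPM) were left without a pair. With this balance as a covariate, an alternative chosen after seeing the data, the log2 fold change of Kcnj10 was -0.50 (SE 0.09, edgeR adjusted p = 0.0765) in 8 libraries and -0.59 (SE 0.09, adjusted p = 0.0171) in 7. That of Aqp4 was -0.24 (SE 0.11, adjusted p = 0.299) and -0.17 (SE 0.11, adjusted p = 0.434). Both genes had smaller SEs with the covariate than without it, and the Kcnj10 difference was past the threshold in 7 libraries. The 2 lowest balances were both in homozygous libraries, so balance and genotype label cannot be fully separated. Nothing on the cause of the Kcnj10 difference is read from these fits. Transcripts of a list of 10 oligodendrocyte genes summed to 8245 to 16010 CPM in homozygous and 10331 to 11866 CPM in heterozygous libraries, none of the 10 was at 0 in any library, and edgeR called none in either fit. The oligodendrocyte sum was 11316, 8245, 9444 and 16010 CPM in homozygous replicates 1 to 4. Homozygous replicates 2 and 3, with the lowest Kcnj10 levels, had the lowest sums of all 8 libraries. Homozygous replicate 4 had the highest sum, with a Kcnj10 level below every heterozygous library. The part of oligodendrocyte content in the Kcnj10 difference was not tested.

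**Figure D3:**
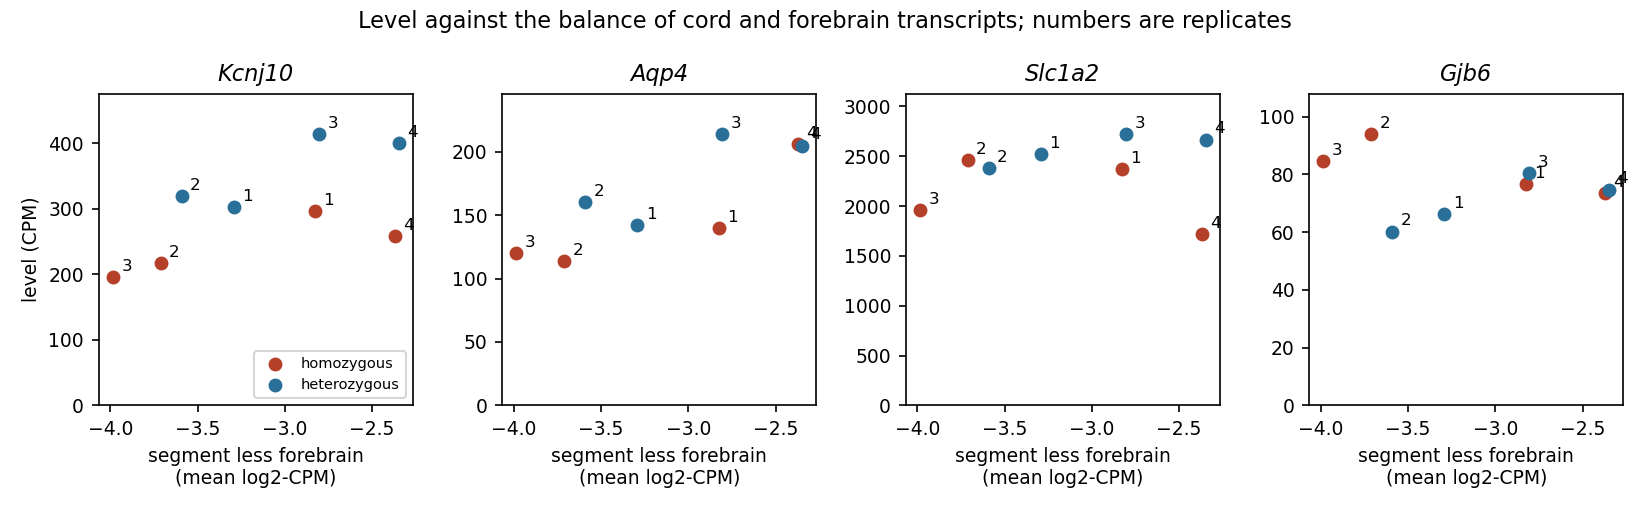
Level (y axis, CPM from 0) of Kcnj10, Aqp4, Slc1a2 and Gjb6 against the balance of cord and forebrain transcripts (x axis, mean log2-CPM of 7 Hox genes less that of 5 forebrain genes); each point is a library, coloured by genotype label and numbered by replicate. Kcnj10 and Aqp4 are lowest at the left, in homozygous replicates 2 and 3, and at the right homozygous replicate 4 matches heterozygous replicate 4 for Aqp4 (206 and 205 CPM) but not for Kcnj10 (259 and 399.9 CPM).

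Slc1a2 encodes GLT-1 (EAAT2), the main glutamate transporter of the adult forebrain, and Slc1a3 encodes GLAST (EAAT1). Slc1a2 was at 2369.5, 2459.7, 1958 and 1719 CPM in homozygous replicates 1 to 4, against 2518, 2379, 2722 and 2668 CPM in heterozygous replicates 1 to 4. Homozygous replicates 3 and 4 lay below the heterozygous range, replicate 1 just below it and replicate 2 within it. In TPM the Slc1a2 groups did not overlap, at 347, 324, 242 and 238 TPM in homozygous replicates 1 to 4, against 378, 355, 399 and 433 TPM in heterozygous replicates 1 to 4, on a scale where the median log2 fold change over all genes is itself -0.14 in 8 and -0.17 in 7 libraries. On log2(TPM + 1) in 8 libraries, 4306 of 16511 genes were lower and 251 higher at an unadjusted limma p under 0.05. The share of all genes whose groups do not overlap in TPM was not counted. The log2 fold change was -0.27 in 8 libraries (SE 0.11, edgeR adjusted p = 0.257) and -0.33 in 7 (SE 0.12, adjusted p = 0.169). On the log2(TPM + 1) scale in 7 libraries it was -0.56 and passed (limma adjusted p = 0.0220); its other alternatives in 7 libraries did not pass, with adjusted p up to 0.403.

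Slc1a3 was at 428, 516, 375 and 355 CPM in homozygous replicates 1 to 4, against 417, 415, 498 and 469 CPM in heterozygous replicates 1 to 4. Homozygous replicate 2 was the highest of all 8 and replicates 3 and 4 the lowest, so the groups overlapped fully. The log2 fold change was -0.10 (SE 0.11, edgeR adjusted p = 0.668) in 8 libraries and -0.12 (SE 0.13, adjusted p = 0.658) in 7. In TPM, Slc1a2 stood at 1.95, 1.69, 1.83 and 1.69 times Slc1a3 in homozygous replicates 1 to 4 and at 2.12, 2.01, 1.91 and 1.98 times in heterozygous replicates 1 to 4. Homozygous replicates 2, 3 and 4 had lower ratios than every heterozygous library, and replicate 1 lay within the heterozygous range. Glul encodes glutamine synthetase, which turns the glutamate taken up into glutamine. It was at 1896, 2071, 1553 and 1551 CPM in homozygous replicates 1 to 4, against 1825, 1635, 2008 and 1828 CPM in heterozygous replicates 1 to 4. The groups overlapped, and its log2 fold change of -0.05 (SE 0.11, edgeR adjusted p = 0.858) in 8 libraries changed sign when homozygous replicate 3 or 4 or heterozygous replicate 3 was left out (0.013, 0.012 and 0.0040). In 7 libraries the log2 fold change of Glul was -0.08 (SE 0.12, edgeR adjusted p = 0.731).

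Gja1 encodes connexin 43 and Gjb6 connexin 30, the main gap junction proteins that couple astrocytes. Their log2 fold changes had opposite signs, and the 250 bases before their start sites are shown for comparison (RefSeq, GRCm38.p6). Neither held TTGGC or ACAAT, which would be in capitals.
Gja1 chr10:56377050-56377299 (plus strand): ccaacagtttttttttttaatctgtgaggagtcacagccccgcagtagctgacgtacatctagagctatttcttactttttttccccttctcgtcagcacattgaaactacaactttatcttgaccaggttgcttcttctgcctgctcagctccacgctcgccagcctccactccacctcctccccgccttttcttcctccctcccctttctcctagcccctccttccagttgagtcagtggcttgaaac
Gjb6 chr14:57133612-57133861 (minus strand): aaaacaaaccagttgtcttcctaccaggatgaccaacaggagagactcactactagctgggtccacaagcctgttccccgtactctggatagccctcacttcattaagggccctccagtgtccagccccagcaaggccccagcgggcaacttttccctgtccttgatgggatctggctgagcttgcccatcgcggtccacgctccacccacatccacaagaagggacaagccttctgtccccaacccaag
Gja1 was at 203, 192.5, 168 and 201 CPM in homozygous replicates 1 to 4, against 174, 196, 257 and 238 CPM in heterozygous replicates 1 to 4. The groups overlapped, with heterozygous replicate 1 lower than 3 of the 4 homozygous libraries, and the log2 fold change was -0.18 (SE 0.12, edgeR adjusted p = 0.466) in 8 libraries and -0.21 (SE 0.13, adjusted p = 0.418) in 7. Gjb6 was at 76.7, 94.0, 84.6 and 73.5 CPM in homozygous replicates 1 to 4, against 66.2, 60.2, 80.6 and 74.7 CPM in heterozygous replicates 1 to 4. Homozygous replicates 2 and 3 were above every heterozygous library and the other two were not (log2 fold change 0.22, SE 0.10, edgeR adjusted p = 0.309 in 8 libraries; 0.25, SE 0.11, adjusted p = 0.258 in 7). On the log2(TPM + 1) scale the Gjb6 difference in 7 libraries was -0.08. The ratio of Gja1 to Gjb6 in TPM was 0.89, 0.77, 0.87 and 1.16 in homozygous replicates 1 to 4 and 0.95, 1.38, 1.28 and 1.07 in heterozygous replicates 1 to 4, overlapping between groups.

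Aldh1l1 encodes the folate enzyme 10-formyltetrahydrofolate dehydrogenase and is a pan-astrocyte marker, and Aldoc encodes aldolase C of glycolysis. Aldh1l1 was at 61.5, 82.9, 69.3 and 75.4 CPM in homozygous replicates 1 to 4, against 59.1, 69.9, 84.9 and 70.8 CPM in heterozygous replicates 1 to 4. Its log2 fold change was near 0 in 8 libraries (0.02, SE 0.12, edgeR adjusted p = 0.947) and was 0.09 in 7 (SE 0.12, adjusted p = 0.686). Aldoc was at 978, 1204, 977 and 1076 CPM in homozygous replicates 1 to 4, against 838, 896, 1137 and 936 CPM in heterozygous replicates 1 to 4. Its log2 fold change was 0.15 (SE 0.10, edgeR adjusted p = 0.470) in 8 libraries and 0.19 (SE 0.11, adjusted p = 0.384) in 7. For both genes the groups overlapped, with a heterozygous library lowest, and on the log2(TPM + 1) scale both differences were negative in 8 libraries (-0.18 for Aldh1l1 and -0.01 for Aldoc). Sox9, a transcription factor of astrocyte specification, was at 16.2, 18.8, 15.6 and 15.7 CPM in homozygous replicates 1 to 4, against 11.2, 16.6, 14.5 and 13.98 CPM in heterozygous replicates 1 to 4. Only heterozygous replicate 2 reached the homozygous range, and the log2 fold change was 0.24 (SE 0.12, edgeR adjusted p = 0.333) in 8 libraries and 0.25 (SE 0.13, adjusted p = 0.334) in 7.

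The 10 genes did not shift as a block in any homozygous library. Homozygous replicate 2 held the highest level of all 8 libraries for 5 genes (Slc1a3, Glul, Gjb6, Aldoc and Sox9) and the lowest for Aqp4. Homozygous replicate 3 was below every heterozygous library for 6 genes and above all of them for Gjb6. Homozygous replicates 1 and 4 were below every heterozygous library for 3 and 4 genes, and above all of them for 0. Among heterozygous libraries, replicate 3 held the highest level for the other 5 genes, replicate 1 the lowest for Aldh1l1, Aldoc and Sox9, and replicate 2 the lowest for Gjb6. The summed level of the 10 genes was 6464, 6969, 5516 and 5532 CPM in homozygous replicates 1 to 4, against 6353, 6148, 7429 and 6902 CPM in heterozygous replicates 1 to 4, with overlap between groups. Of all other genes tested, Adhfe1, Nadk2 and Mr1 were most alike in pattern to the mean standardized log2-CPM of the members (Pearson's r 0.95, 0.94 and 0.94, Spearman's rho 0.95 each, over the 8 libraries of both groups, which share depth and tissue differences).

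**Figure D4:**
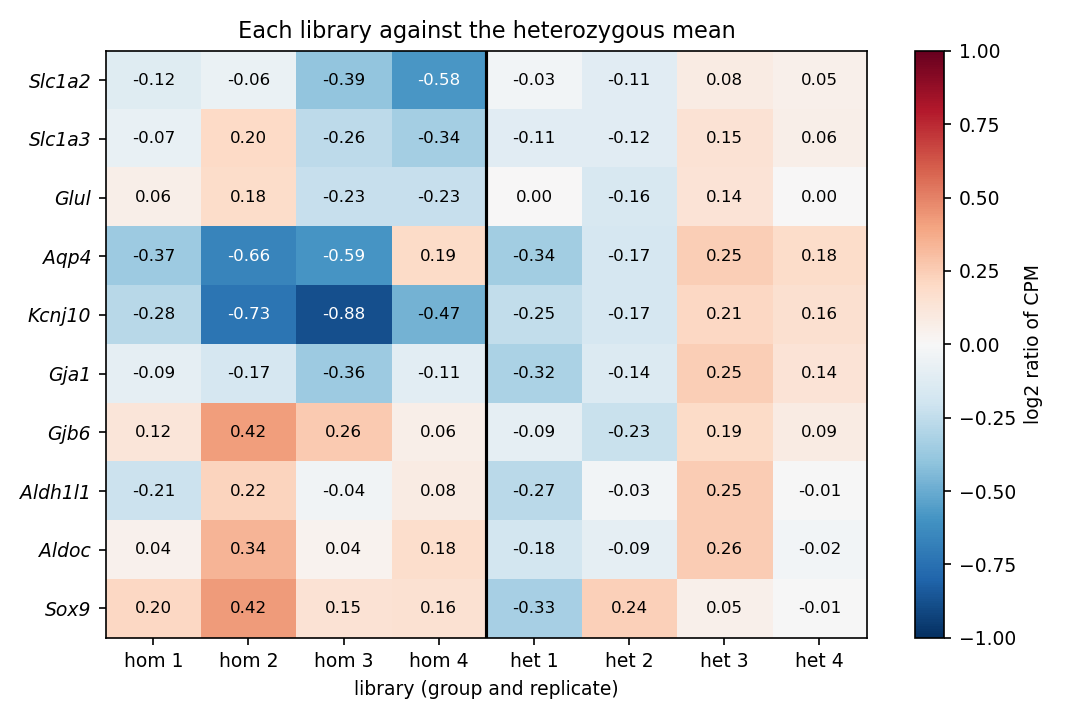
Log2 ratio of each library's CPM to the heterozygous mean, with genes in rows and libraries in columns (homozygous, then heterozygous). Kcnj10 is negative in all 4 homozygous columns, from -0.88 to -0.28, as are Slc1a2 (-0.58 to -0.06) and Gja1 (-0.36 to -0.09), whereas Gjb6, Sox9 and Aldoc (0.04 to 0.34) are positive in all 4, and heterozygous replicates 1 and 3 show that whole columns also differ within a group.

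A wider set of 73 astrocyte genes in 6 lists (glutamate and amino acid handling, ions and water, coupling and anchoring, transcription factors, identity, and glycolysis) gave 0 calls in 8 libraries. In 7 libraries edgeR called 1 of the 73 higher and 3 lower, against 0.55% and 0.67% of all genes tested. At an unadjusted edgeR p under 0.05 there were 30 of the 73 in 8 libraries and 29 in 7, against 16.8% and 19.5% of all genes. The lists were chosen with earlier results of these data known. In both fits 47 of the 73 had a negative log2 fold change, with medians of -0.11 and -0.13, beside 49.6% and 49.5% negative over all genes. Etnppl, which encodes the astrocyte phospholyase that breaks down phosphoethanolamine, rose in 7 libraries. It was at 70.3, 120.5, 86.3 and 76.0 CPM in homozygous replicates 1 to 4, against 34.9, 31.0, 43.4 and 46.5 CPM in heterozygous replicates 1 to 4, and no library crossed between groups (log2 fold change 1.27, SE 0.19, edgeR adjusted p = 0.0334 in 7 libraries; 1.18, SE 0.19, adjusted p = 0.0962 in 8). The call held without homozygous replicate 4 (adjusted p = 0.0189) and was lost without any 1 of the other 6 libraries (0.0535 to 0.0972). Homozygous replicate 1, with Arf1 at the heterozygous level, had more Etnppl than every heterozygous library. It was also on the homozygous side for Slc38a3, Tjp1 and Chrdl1, described below.

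Slc38a3, which encodes the glutamine transporter SNAT3, fell in 7 libraries and stands in the list of glutamate, glutamine and amino acid handling, where 9 of 10 genes had negative log2 fold changes (median -0.36 in 8 and -0.40 in 7 libraries) and Etnppl was the exception. It was at 48.7, 35.4, 41.4 and 40.8 CPM in homozygous replicates 1 to 4, against 50.9, 55.45, 67.3 and 61.97 CPM in heterozygous replicates 1 to 4 (log2 fold change -0.59, SE 0.10, edgeR adjusted p = 0.0368 in 7 libraries; adjusted p = 0.118 in 8). The groups did not overlap, but the call was lost without homozygous replicate 2 or 3 or heterozygous replicate 2, 3 or 4 (adjusted p 0.0653 to 0.134). Slc7a11, the cystine and glutamate exchanger, was at 31.2, 22.1, 20.5 and 28.1 CPM in homozygous and 31.6, 37.3, 47.0 and 47.8 CPM in heterozygous replicates 1 to 4 and did not pass (log2 fold change -0.79, SE 0.17, edgeR adjusted p = 0.0616 in 7 libraries). The astrocyte GABA transporter Slc6a11 and the glycine transporter Slc6a9 did not pass either (log2 fold changes -0.53 and -0.49 in 7 libraries, edgeR adjusted p = 0.114 and 0.164).

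Among 10 other genes of ion and water handling none passed in either fit, and 7 of 10 were negative (median -0.24 in 8 and -0.26 in 7 libraries). The smallest p belonged to Mt3, a zinc-binding metallothionein (log2 fold change 0.32, SE 0.07, edgeR adjusted p = 0.0563 in 7 libraries), and to the chloride channel Clcn2 (0.27, SE 0.07, adjusted p = 0.0924). In TPM the groups overlapped for Mt3 (916 to 1084 in homozygous and 876 to 988 in heterozygous libraries). They also did for Clcn2 (22.3 to 26.1 TPM in homozygous and 21.9 to 26.7 TPM in heterozygous libraries). In the list of coupling and perivascular anchoring, 1 of 8 genes fell in 7 libraries and 6 of 8 were negative in both fits. That gene was Tjp1, the junction scaffold ZO-1, which binds connexin 43 and is also made by endothelial cells. It was at 81.0, 75.6, 68.6 and 80.1 CPM in homozygous replicates 1 to 4, against 96.2, 101, 100.2 and 102 CPM in heterozygous replicates 1 to 4, with no overlap (log2 fold change -0.42, SE 0.07, edgeR adjusted p = 0.0334 in 7 libraries; adjusted p = 0.0962 in 8). Its call was lost without homozygous replicate 2 or 3 or heterozygous replicate 2, 3 or 4 (adjusted p 0.0685 to 0.131). A list of 7 endothelial genes, none at 0 in any library, summed to 116 to 201 CPM in homozygous and 172 to 234 CPM in heterozygous libraries, with all 7 log2 fold changes negative in both fits and 1 called lower in 7 libraries; its part in the Tjp1 difference was not tested.

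Astrocyte transcription factors showed no call in either fit, with 6 of 12 negative in 8 libraries and 5 of 12 in 7. Sox2, a factor of neural progenitors and astrocytes, was at 24.1, 26.6, 23.2 and 25.6 CPM in homozygous and 17.5, 21.8, 21.8 and 17.3 CPM in heterozygous replicates 1 to 4, without overlap in CPM, and did not pass (log2 fold change 0.36, SE 0.11, edgeR adjusted p = 0.118 in 7 libraries). In TPM the Sox2 groups overlapped (17.3 to 21.5 in homozygous and 15.9 to 19.7 in heterozygous libraries). Nfix, a nuclear factor I gene, had a log2 fold change of -0.19 in 7 libraries (SE 0.07, edgeR adjusted p = 0.190), with overlapping groups in CPM. In TPM its groups did not overlap (50.5 to 52.7 in homozygous and 67.8 to 77.6 in heterozygous libraries), on a scale where the median over all genes is itself negative and the share of all genes without overlap was not counted. In 7 libraries Nfix passed in 1 of 9 fits with other settings. Of 20 further identity genes, only Chrdl1, a secreted antagonist of bone morphogenetic proteins that astrocytes release at synapses, passed in 7 libraries. It was at 11.5, 8.60, 11.6 and 9.49 CPM in homozygous replicates 1 to 4, against 14.8, 18.7, 20.6 and 15.5 CPM in heterozygous replicates 1 to 4, with no overlap (log2 fold change -0.81, SE 0.15, edgeR adjusted p = 0.0390 in 7 libraries; adjusted p = 0.0802 with the balance covariate and 0.0962 without it in 8). The call held without heterozygous replicate 1 (adjusted p = 0.0297) and was lost without any 1 of the other 6 libraries (0.0582 to 0.135). None of 13 genes of glycolysis, glycogen and lactate passed. Slc16a3, which encodes a monocarboxylate transporter, was at 3.34, 4.17, 3.47 and 4.60 CPM in homozygous replicates 1 to 4, against 2.99, 2.29, 2.69 and 3.12 CPM in heterozygous replicates 1 to 4, without overlap in CPM, and did not pass (log2 fold change 0.56, SE 0.17, edgeR adjusted p = 0.122 in 7 libraries). In TPM the Slc16a3 groups overlapped (2.42 to 3.85 in homozygous and 1.82 to 3.28 in heterozygous libraries).

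**Figure D5:**
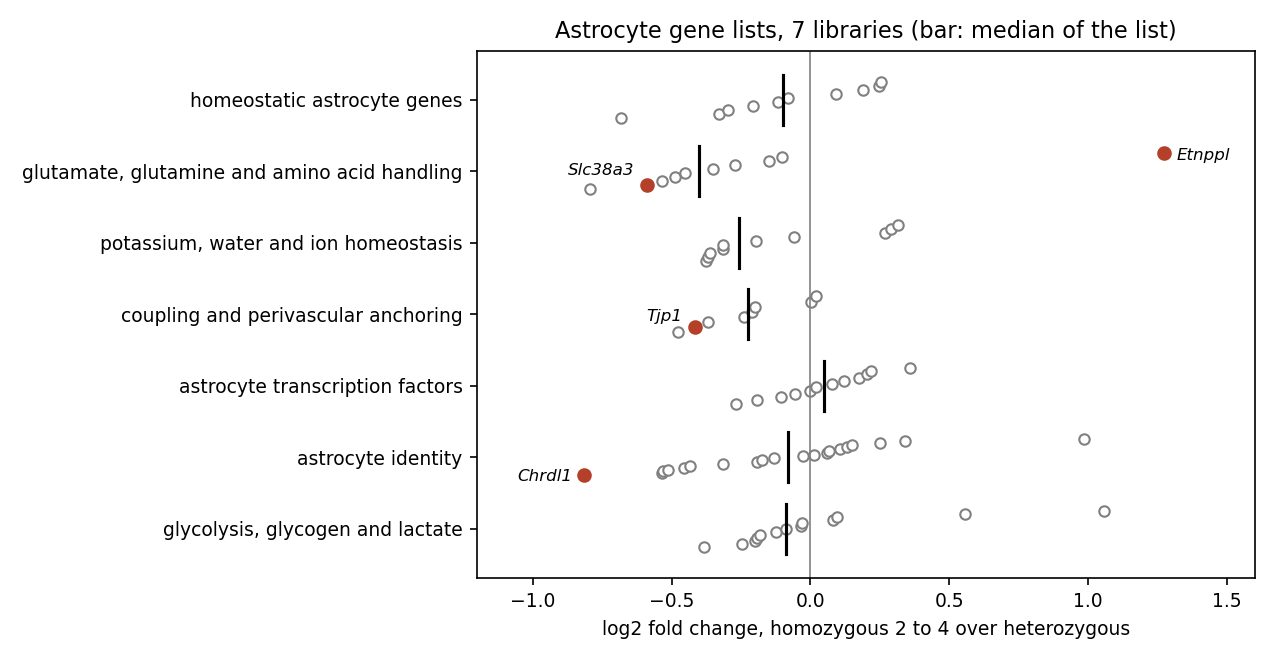
Log2 fold change (x axis, homozygous replicates 2 to 4 over heterozygous, edgeR fit of 7 libraries) of each gene, by list (y axis); filled points passed at an adjusted p of 0.05, open points did not, and the bar is the median of the list. Etnppl is the filled point at 1.27, Slc38a3, Tjp1 and Chrdl1 are those at -0.59, -0.42 and -0.81, and no point of the 10 homeostatic genes is filled.

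Gfap, the intermediate filament used as a sign of reactive astrocytes, was at 303, 594, 567 and 1352 CPM in homozygous replicates 1 to 4, against 398, 316, 360 and 417 CPM in heterozygous replicates 1 to 4. Homozygous replicates 2 to 4 lay above every heterozygous library, yet the difference did not pass (log2 fold change 1.17, SE 0.31, edgeR adjusted p = 0.117 in 7 libraries; 0.92, SE 0.42, adjusted p = 0.329 in 8). It passed in 7 libraries without homozygous replicate 4 (log2 fold change 0.63, adjusted p = 0.0254) and with the balance covariate (1.26, adjusted p = 0.0153), and DESeq2 called it in 7 libraries (1.16, adjusted p = 0.0407). The authors' deposited table does not state the groups compared. It lists Gfap with a logFC of 1.14 and a false discovery rate of 0.0193, and Etnppl with a logFC of 1.14 and a false discovery rate of 6.3e-06. In homozygous replicate 4, which had the highest Gfap level, Slc1a2, Slc1a3 and Glul were at their lowest CPM of the 8 libraries, while Aqp4 was near its highest. Homozygous replicate 3 was second lowest in CPM for all 3 of those genes. RNA integrity was 8 in homozygous replicate 4 and 9 in every other library, and the median 3 prime bias was 0.401 in homozygous replicate 3 and 0.382 in replicate 4, against 0.332 and 0.348 in homozygous replicates 1 and 2 and 0.323 to 0.360 in heterozygous libraries. The part of RNA quality in these levels was not tested. The authors' deposited table of their comparison lists 185 genes, all with an absolute logFC of at least 1.0006 and a false discovery rate of at most 0.0936, and 0 of the 10 homeostatic genes are among them. That 0 follows from the size limit of the table, since no member had a log2 fold change beyond 0.68 in size in either fit, and nothing is read from it.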

How the data were processed

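RNA of 8 animals was sequenced as 1 library each. The tools were cutadapt, STAR, RSEM and Picard with build mm10, per the submitters' processing notes, which name no versions. The authors deposited RSEM expected counts and TPM per gene, per the file headers. The authors' deposited comparison holds p-values, false discovery rates, log2 fold changes and mean log2-CPM, and their deposited sequencing report other values per library, such as mapped reads. RSEM divides reads shared by similar genes. At least 99.44% of reads were on the expected strand.

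Rounded expected counts were tested in edgeR 4.0.16 (R 4.3.3): TMM, filterByExpr, robust glmQLFit and glmQLFTest, with Benjamini-Hochberg adjustment across every gene tested and a threshold of 0.05. Each SE belongs to a fitted log2 fold change. All 10 members passed the filter. CPM are TMM-scaled over 8 libraries. Each animal has its own number in the title, so replicates are separate animals, numbered by deposition. The members and lists were chosen with earlier results of these data known, as was the repeat without homozygous replicate 1. Genes named beside the members were Arf1, Gfap, those past the threshold in each astrocyte list (otherwise the 2 with the smallest p in 7 libraries), the 3 genes most alike, and genes set beside a result they move with; Kcnj16, Slc7a11, Slc6a11 and Slc6a9 were chosen after their values were seen, and some genes this rule names are not reported here. Other settings tried were median-of-ratios scaling, other filters, DESeq2 1.42.0, limma-voom (limma 3.58.1), a non-robust fit, limma with log2(TPM + 1), the log2-CPM of Xist as covariate, an adjusted p of 0.1, each library left out and, chosen after seeing the data, the balance of cord and forebrain transcripts as covariate. The procedure was tested on simulated counts. Of 47643 identifiers, 47224 matched GENCODE M21 without version (positions on GRCm38, also called mm10); promoters are from RefSeq (GRCm38.p6). Python 3.11.15 with pandas 2.3.3 and matplotlib 3.10.9 made tables and figures.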

Additional observations from a re-analysis of the deposited data

Results flagged for a closer look

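Arf1 was at 307 CPM in homozygous replicate 1, far from the other 3 homozygous libraries, which lay between 22.5 and 39.9 CPM; the gap to the nearest of them was 0.939 of the range of the group, above the 0.829 that Dixon's test sets for 4 samples. Of 44 groups of 4 values examined this way (the members and a selection of other genes, in each genotype), 1 stood apart, and chance alone gives about 1 in 20. None of the 10 homeostatic astrocyte genes had such a library in either group.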

How the results depend on the processing

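Of 330 values of the 10 members under alternatives, 311 kept their sign and their side of the threshold, 8 passed newly, 11 changed sign and 0 lost a call, since there was none to lose. Those that passed were Kcnj10, by DESeq2 in 8 libraries, and in 7 libraries with no filter (adjusted p = 0.0245), by DESeq2, on log2(TPM + 1) (0.0199), with the balance covariate (0.0171) and without homozygous replicate 4 or heterozygous replicate 1, and Slc1a2 on log2(TPM + 1) (0.0220). The count of members called was thus 1 by DESeq2 in 8 libraries, and in 7 libraries 1 with no filter, by DESeq2, with the covariate or at an adjusted p of 0.1, 2 on log2(TPM + 1), and 0 to 1 with 1 library left out. The members' median was -0.29 and -0.36 on log2(TPM + 1), where all genes shift the same way. The sign turned for Glul in 8 libraries without homozygous replicate 3 (0.013) or 4 (0.012) or heterozygous replicate 3 (0.0040; range -0.13 to 0.013 over left-out libraries), for Aldh1l1 in 8 libraries on log2(TPM + 1) (-0.18) and without homozygous replicate 2 (-0.048) or 4 (-0.00065) or heterozygous replicate 1 (-0.058; range to 0.12), in 7 on log2(TPM + 1) (-0.15), for Aldoc on log2(TPM + 1) (-0.014 in both fits) and for Gjb6 there in 7 libraries (-0.077). The cause was not tested.

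Over all genes, edgeR called 0 in 8 libraries (2769 at an unadjusted p under 0.05; limma-voom 0), 63 with no filter, 679 by DESeq2, 1 on log2(TPM + 1), 71 at an adjusted p of 0.1 and 0 to 202 with 1 library left out, namely 202 without homozygous replicate 1 and 40 without heterozygous replicate 1. In 7 libraries it called 202, against 444 with no filter, 1081 by DESeq2, 109 by limma-voom, 2190 on log2(TPM + 1), 63 with Xist as a covariate, 834 at an adjusted p of 0.1 and 6 to 402 with 1 library left out, lowest without homozygous replicate 3 and highest without homozygous replicate 4. No paired analysis was possible because every animal has its own number in the labels and replicates are numbered only by deposition. Depth did not limit the members, whose lowest count was 386.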
